A study of Mus musculus with 4 samples.

Results

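Egr1 and genes of the AP-1 family were measured as a set of 7 genes in mouse heart ventricles: Egr1, Fos, Fosl1, Fosl2, Jun, Junb and Atf3. The members were the clones on a printed cDNA array whose only gene symbol in the platform annotation was one of these 7. Of 12 such clones 11 had values, out of 16471 clones and 8106 named genes measured. Junb had 2 clones, of which 1 had no value on any array. The set was chosen from the high-salt against low-salt log ratios themselves, so these ratios are described here for the members without a test of salt.

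The study compared male mice that had 1 kidney removed, received deoxycorticosterone acetate (DOCA) for 5 weeks and ate food with 0.5 mg Na per g. High-salt mice drank 1% NaCl, and low-salt mice drank tap water. All were wild-type mice of a backcross, labelled N5–6(129Ola/C57BL/6J) and 1-renin, aged 12 to 13 weeks, and all carried the DOCA and the kidney removal, so the comparison is of salt within DOCA treatment. Right and left ventricles with the septum were taken from 3 mice per group. Each array set the RNA of 1 high-salt mouse against that of 1 low-salt mouse. Pair 1 was on array 1 and pair 3 on array 3, and pair 2 was on arrays 2 and 4 with the dyes exchanged. High-salt RNA carried Cy3 on arrays 1 and 2 and Cy5 on arrays 3 and 4. The 2 arrays of pair 2 were treated as technical repeats and reduced to their mean, which left 3 pairs as replicates.

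Egr1 is a zinc-finger transcription factor, and AP-1 is a family of dimers that Fos and Jun proteins form through leucine zippers. Egr1, Fos, Jun, Junb and Atf3 are immediate-early genes, whose mRNA is low in resting cells. It appears within minutes of a growth factor, stretch, stress or hormone signal through kinases of the MAP kinase cascades, and decays quickly. In the heart, pressure load and stretch are known inducers of Egr1, Fos and Jun. Atf3 is a stress-induced factor that pairs with Jun proteins or with itself and often represses its targets.

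The values are the authors' deposited log ratios of the 2 dyes, read as log2 of high over low salt, so a negative value means less in high salt. Base 2 is an assumption. The direction follows the wording of the array titles and is likely but not settled, because the sources used here do not say whether the dye-swapped arrays were turned before deposit. Over 17207 features with values, Pearson's r was 0.69 between the arrays with Cy3 on high salt, 0.53 between those with Cy5 on it, and -0.34 to -0.61 between arrays of opposite orientation. Over the 16471 clones of the fits, which leave out 736 recurring features without a gene name, these values were 0.57, 0.43 and -0.07 to -0.37. The same mice on arrays 2 and 4 gave -0.41 over the features and -0.07 over the clones. These are correlations across features, which are not independent replicates. The array medians lay between -0.0062 and 0.01. Heart weights were 120, 128 and 131 mg in high-salt mice and 107, 108 and 109 mg in low-salt mice, so the ranges did not overlap.

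Egr1 and 5 AP-1 genes lay below 0 on average, and Egr1 lay lowest. The mean log2 ratio was -2.30 for Egr1, -1.14 for Atf3, -0.99 for Junb, -0.93 for Fosl2, -0.73 for Fos and -0.20 for Fosl1, and 0.08 for Jun. The median over the 7 members was -0.93, against -0.00026 over all 8106 genes. Egr1, Fos, Junb and Atf3 were below 0 on all 4 arrays, that is 4 of 7 members, and 7.75% of all genes were. None of the 7 was above 0 on all arrays, as 7.01% of all genes were. Of the 11 member clones 7 were below 0 on all 4 arrays, against 6.76% of all clones, and 0 above, against 6.65%. The members' counts cannot be read against these shares because the same ratios chose them. With arrays 1 and 2 turned in sign, as if the table held Cy5 over Cy3 throughout, the member means ran from -0.40 for Junb to 0.33 for Egr1 and their median was -0.04, so the low values depend on the reading adopted here. RNA came from whole ventricle pieces, where fewer cells of a type and less RNA per cell cannot be told apart.

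**Figure D1:**
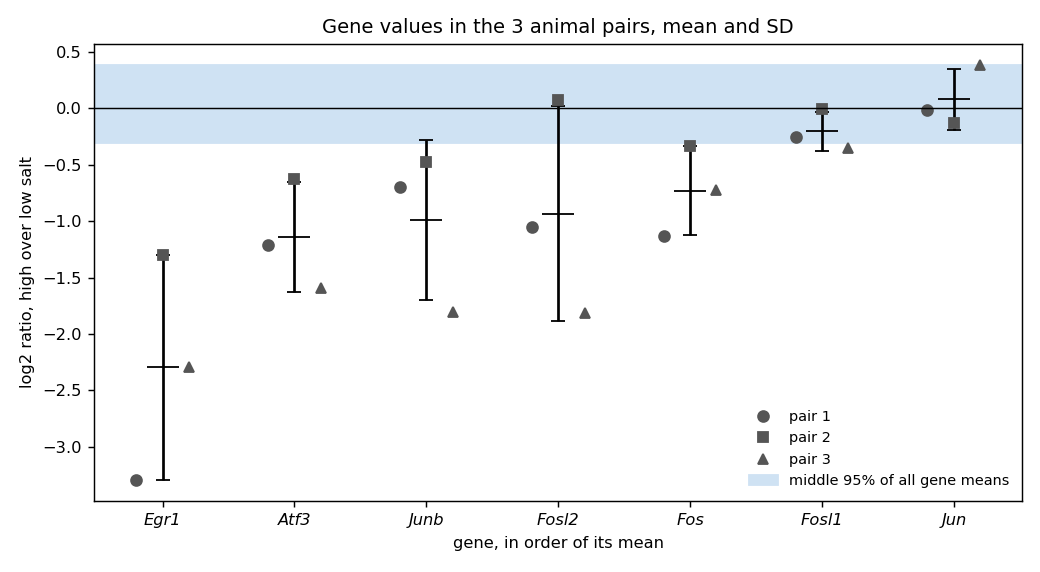
Log2 ratios of high over low salt (vertical axis) of the 7 genes in the 3 animal pairs (points), with the mean (bar) and SD (whiskers). The shaded band is the middle 95% of all gene means, from -0.31 to 0.38; the means of Egr1, Atf3, Junb, Fosl2 and Fos lie below it.

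Across all genes limma called 0 of 8106 between high and low salt at an adjusted p of 0.05, that is 0% of the genes. At an unadjusted p under 0.05 it put 213 genes (2.63%) lower and 228 (2.81%) higher. It also called 0 of 16471 clones. With 3 pairs, the number of arrays limits the precision, and no intensities were used here.

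Egr1 was represented by 2 clones. The first clone stood at -3.07 in pair 1 (array 1), -1.17 and -1.32 in pair 2 (arrays 2 and 4) and -2.08 in pair 3 (array 3). The second stood at -3.52, at -1.41 and -1.30, and at -2.50 on the same arrays. Both clones were thus deepest in pair 1, least deep in pair 2, and below -1 on every array. The clone means differed by 0.33. Averaged over the clones, the log2 ratio of Egr1 was -3.30 in pair 1, -1.30 in pair 2 and -2.29 in pair 3. These values correspond to 0.102, 0.406 and 0.204 times the low-salt level. The mean was -2.30 ± 0.997 (SD, n = 3 pairs), or 0.204 times the low-salt level.

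Only 1 of 8106 genes had a lower mean than Egr1. This was Zfp213, which stood at -7.35 on array 1 and between -0.44 and 0.86 on the other arrays. Leaving out 1 pair at a time put the Egr1 mean between -1.80 without pair 1 and -2.79 without pair 2. In the mice measured on both dye orientations, Egr1 stood at -1.29 with Cy3 on high salt and -1.31 with Cy5 on it, a difference of 0.016. The same difference was 0.15 for the first clone and -0.12 for the second, so the clones offset each other in this average. For all genes the median absolute difference between these 2 arrays was 0.195. With arrays 1 and 2 turned, pair 2 would therefore cancel, and the Egr1 mean would be 0.33 ± 2.81.

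**Figure D2:**
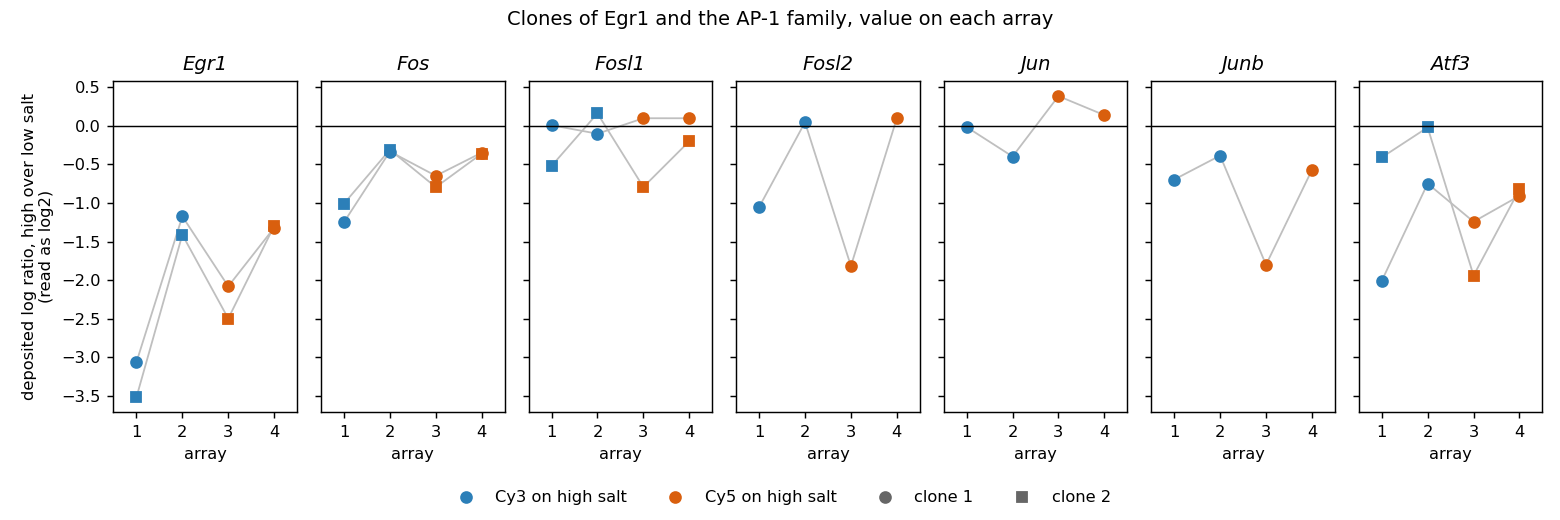
Deposited log ratio (vertical axis, read as log2) of each measured clone on arrays 1 to 4, coloured by the dye on the high-salt RNA. Both Egr1 clones lie below -1 on every array, and the Fos clones keep close together, while Jun lies below 0 with Cy3 and above 0 with Cy5.

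Fos, the founding partner of AP-1 dimers, had 2 clones that kept close together. The first stood at -1.25 in pair 1, -0.33 and -0.35 in pair 2 and -0.65 in pair 3. The second stood at -1.01, at -0.31 and -0.36, and at -0.79. As for Egr1, pair 1 was deepest and pair 2 least deep. The Fos mean was -0.73 ± 0.40 (SD, n = 3 pairs), or 0.604 times the low-salt level, and it lay between -0.53 and -0.92 with 1 pair left out. The clone means differed by 0.033. Among the 1870 genes with exactly 2 measured clones, the median difference was 0.094, and it was 0.33 among the 36 of them with an absolute mean of at least 0.5.

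Fosl2 and Fosl1 encode Fra-2 and Fra-1, Fos relatives that lack a strong activation domain. The single Fosl2 clone stood at -1.05 in pair 1 and -1.82 in pair 3, but at 0.05 and 0.10 on the arrays of pair 2. Pairs 1 and 3 were thus well below 0 while pair 2 was close to it on both dye orientations. Its mean of -0.93 ± 0.95 (SD, n = 3 pairs) had an SD larger than itself, and it moved to -0.49 without pair 3 and to -1.44 without pair 2.

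The 2 Fosl1 clones differed. The first stayed between -0.10 and 0.10 on the 4 arrays. The second stood at -0.52 in pair 1, 0.16 and -0.20 in pair 2 and -0.79 in pair 3, the same order of pairs as Fosl2. Their means were 0.04 and -0.44, a difference of 0.48, above the 0.40 that 95% of 2-clone genes stayed under. The Fosl1 mean of -0.20 ± 0.17 therefore averages a clone near 0 and a lower one.

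Jun and Junb encode partners that dimerise with Fos proteins or with Jun proteins. Junb, which is also known to hold back Jun-driven transcription, had 1 clone with values. It stood at -0.70 in pair 1, -0.38 and -0.57 in pair 2 and -1.80 in pair 3, so it was below 0 on each array and deepest in pair 3. The mean was -0.99 ± 0.71 (SD, n = 3 pairs), or 0.503 times the low-salt level, and it was -0.59 without pair 3 and -1.25 without pair 2.

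Jun was the member that did not lie below 0. Its clone stood at -0.01 in pair 1, -0.40 and 0.14 in pair 2 and 0.39 in pair 3. Both arrays with Cy3 on high salt were below 0 and both with Cy5 above it, and within pair 2 the same mice gave opposite signs. The Jun mean was 0.08 ± 0.27, and it was -0.07 without pair 3. Junb lay below Jun in each pair, though on array 2 the 2 clones stood at -0.38 and -0.40.

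Atf3 was lowest among the bZIP members. Its first clone stood at -2.01 in pair 1, -0.75 and -0.91 in pair 2 and -1.24 in pair 3. Its second clone stood at -0.41 in pair 1, -0.02 and -0.82 in pair 2 and -1.94 in pair 3. Both clones were below 0 on every array but ordered the pairs differently, with the first deepest in pair 1 and the second in pair 3. On array 1 they were 1.60 apart and on array 4 they were 0.084 apart. Their means, -1.36 and -0.92, differed by 0.44, which like that of Fosl1 was above the 0.40 that 95% of 2-clone genes stayed under. Among the 36 such genes with an absolute mean of at least 0.5, as Atf3 has, the median difference was 0.33. Averaged over clones, Atf3 stood at -1.21, -0.62 and -1.59 in pairs 1 to 3, a mean of -1.14 ± 0.49 (SD, n = 3 pairs) or 0.453 times the low-salt level. With 1 pair left out the mean lay between -0.92 and -1.40.

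The members differed in which pair was deepest. Pair 1 was deepest for Egr1 and Fos, and pair 3 for Fosl1, Fosl2, Junb and Atf3. Pair 1 was measured only with Cy3 on high salt and pair 3 only with Cy5, so mice and dye orientation cannot be told apart here. Pair 2 had the smallest absolute value for 6 of the 7 members, Jun being the exception. That was so for 44.8% of all genes and for 22.1% of the 628 genes below 0 on all 4 arrays. Pair 2 is the mean of 2 arrays with exchanged dyes and the other pairs rest on 1 array each. The heart weight difference was 22, 21 and 12 mg in pairs 1, 2 and 3, an order that Egr1 did not follow. The SD over pairs was above the median over all genes, 0.15, for each of the 7 members, and above the 95th percentile of 0.66 for Egr1, Fosl2 and Junb.

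Most neighbours in the order of means did not keep the same order in all 3 pairs. Egr1 lay below Atf3, the next gene, in each of the 3 pairs, by 1.15 on the log2 scale on average. Egr1 minus Atf3 was -2.09, -0.68 and -0.70 in pairs 1 to 3. Atf3, Junb, Fosl2 and Fos spanned means of -1.14 to -0.73 with SDs of 0.40 to 0.95. Among them Atf3 lay below Fos in each pair, at -1.21 against -1.13 in pair 1. There the second Atf3 clone stood at -0.41, above Fos. The other orders among these genes changed from pair to pair and are not resolved. Fos lay below Fosl1 in each pair, and Fosl1 and Jun lay nearer 0.

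Dye orientation was read from the same log ratios that the members were chosen from, so it is no independent measure of them. Its term in the fit compares pair 3, with Cy5 on high salt, with pair 1, with Cy3 on it. Dye and mice therefore cannot be told apart in this term. The exchanged dyes of arrays 2 and 4, averaged within pair 2, do not enter it. When dye orientation entered the limma fit beside salt, its term passed an adjusted p of 0.05 for 416 of 8106 genes, 5.13%. None of the 7 members passed, and their adjusted p for the dye term ran from 0.25 for Junb to 0.86 for Fosl1, which does not show that dye had no effect on them. Their count is not read against that share, since likeness between arrays may have entered the choice of members. If the deposited ratios had not been turned, this term would hold the effect of salt in pairs 1 and 3. On arrays 2 and 4 the Fos gene means were -0.32 and -0.35, those of Junb -0.38 and -0.57 and those of Atf3 -0.38 and -0.86. The Atf3 difference of 0.48 came mostly from its second clone, at -0.02 and -0.82.

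**Figure D3:**
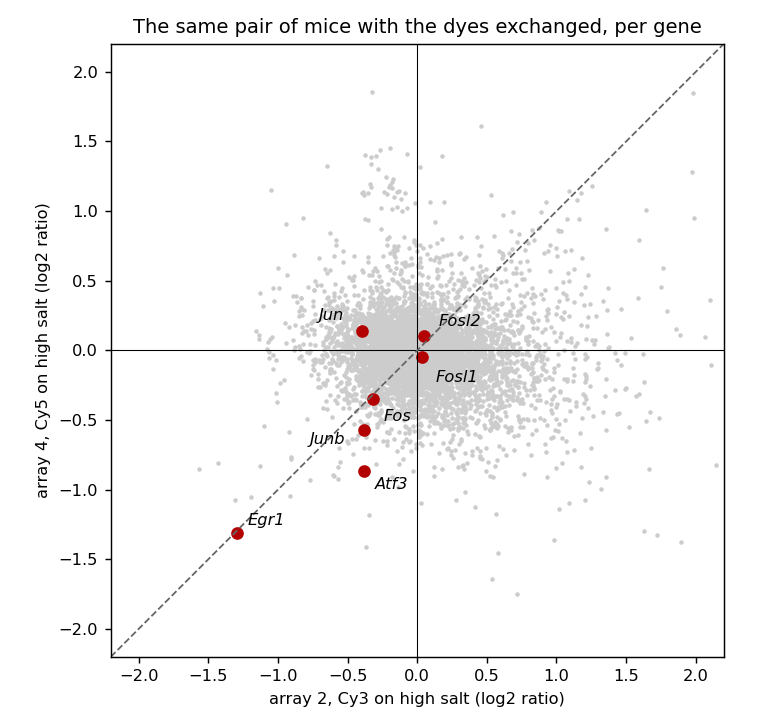
Log2 ratios of each gene on array 2 (horizontal axis, Cy3 on high salt) and array 4 (vertical axis, Cy5 on high salt), which hold the same pair of mice; grey points are all genes, of which 16 lie outside the axes, and the dashed line marks equal values. Egr1 and Fos lie near the line at -1.29 and -1.31 and at -0.32 and -0.35, Junb and Atf3 lie in the same quadrant, and Jun has opposite signs.

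Promoter sequences show what the genes share outside the arrays. The windows run from 250 bases before to 50 after the transcription start, from RefSeq (GRCm38.p6), and 5 of the 7 members matched. Egr1 and Fosl1 were not matched. Fos, Junb and Atf3, which lay below 0 on all arrays, are printed, and so is Jun, with a mean of 0.08. Fosl2 was matched but is not printed. It had mixed signs on the arrays and a mean of -0.93. Each is given 5′ to 3′ on the strand of its gene, and capitals mark the motifs found.
Fos, GRCm38.p6 chr12:85473640-85473939, plus strand: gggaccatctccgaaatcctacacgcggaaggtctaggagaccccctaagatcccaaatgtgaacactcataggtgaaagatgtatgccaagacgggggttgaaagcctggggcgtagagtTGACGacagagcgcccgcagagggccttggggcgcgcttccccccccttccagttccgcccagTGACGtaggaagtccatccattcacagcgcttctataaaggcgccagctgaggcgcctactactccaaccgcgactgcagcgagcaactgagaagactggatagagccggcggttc
Junb, GRCm38.p6 chr8:84978699-84978998, minus strand: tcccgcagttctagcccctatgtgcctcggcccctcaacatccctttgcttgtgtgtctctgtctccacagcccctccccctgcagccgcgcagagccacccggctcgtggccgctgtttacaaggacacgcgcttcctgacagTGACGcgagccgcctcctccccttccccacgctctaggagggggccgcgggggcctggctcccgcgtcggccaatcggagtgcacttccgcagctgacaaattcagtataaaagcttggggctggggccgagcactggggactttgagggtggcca
Atf3, GRCm38.p6 chr1:191183284-191183583, minus strand: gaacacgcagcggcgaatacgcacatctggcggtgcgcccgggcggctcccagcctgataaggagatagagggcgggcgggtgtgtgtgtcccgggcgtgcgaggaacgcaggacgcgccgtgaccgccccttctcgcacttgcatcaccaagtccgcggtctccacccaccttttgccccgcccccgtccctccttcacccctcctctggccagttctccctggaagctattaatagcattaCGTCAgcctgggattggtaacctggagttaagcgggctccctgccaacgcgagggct
Jun, GRCm38.p6 chr4:95052173-95052472, minus strand: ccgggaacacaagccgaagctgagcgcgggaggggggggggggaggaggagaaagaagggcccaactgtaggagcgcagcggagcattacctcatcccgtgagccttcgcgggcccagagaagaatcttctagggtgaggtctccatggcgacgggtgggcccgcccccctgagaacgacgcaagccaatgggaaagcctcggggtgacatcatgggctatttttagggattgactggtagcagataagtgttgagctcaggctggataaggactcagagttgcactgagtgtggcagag

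The cAMP response element (CRE) and its shorter core bind CREB and ATF proteins, which switch on many immediate-early genes. Its core TGACG was found on either strand in 3 of the 5 member windows, those of Fos, Junb and Atf3, and in 20.8% of all 32851 windows. The windows of Jun and of Fosl2, whose mean was -0.93, did not hold it. In Fos it starts at -129 and at -66 from the start of transcription. In Junb it starts at -106, and in Atf3 it lies from -7 to -3 on the opposite strand. The full CRE, TGACGTCA, was in 0 of the 5 member windows and in 1.79% of all windows, and each full CRE also holds the core.

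The AP-1 motif TGANTCA was in 0 of the 5 windows and in 7.81% of all. The CArG box, the site of serum response factor, was in 0 of the 5 and in 1.63% of all. The Egr motif GCGNGGGCG was in the Fosl2 window, starting at -79, and in 5.55% of all windows. These matches describe letters within short windows, and a missing match says only that the letters are not in this window. The Jun window, for example, holds TGACATCA, a near match of the full CRE that none of the motifs searched covers.

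Other genes of the pathway were read from lists chosen with earlier results of these data known. The shares of all genes are given beside each list's counts, but the counts cannot be read against them as support. Among relatives of Egr1 the arrays measured only Nab1, a corepressor of Egr proteins, at 0.03 ± 0.34 (SD, n = 3 pairs). Of 15 other AP-1 and bZIP partners 0 passed adjustment over all genes. At an unadjusted p under 0.05, 1 was lower and 0 higher, against 2.63% and 2.81% of all genes. The median log2 ratio of the 15 was -0.01. Cebpd, a bZIP factor of the acute-phase response, was the only one with 1 sign on all 4 arrays, at -0.48 in pair 1, -0.26 in pair 2 and -0.20 in pair 3, with a mean of -0.31 ± 0.15 (SD, n = 3 pairs), and of 0.05 with arrays 1 and 2 turned. The turned means of the 15 ran from -0.97 to 0.11.

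As read here, genes upstream of the members had means within 0.23 of 0. Of 20 kinases and their activators 2 were lower and 0 higher at an unadjusted p under 0.05, against 2.63% and 2.81% of all genes. The kinase means ran from -0.23 to 0.18, with a median of -0.02. Mapk9, the stress kinase JNK2 that phosphorylates Jun, had a mean of -0.23 ± 0.083, Araf, a RAF kinase of the ERK cascade, -0.23 ± 0.13 and Nras, a small GTPase above RAF, 0.18 ± 0.12 (SD, n = 3 pairs). Each of these had 1 sign on all 4 arrays. Of 9 upstream transcription factors none had 1 sign on all arrays, and their means ran from -0.12 to 0.19. With arrays 1 and 2 turned, the kinase means ran from -1.18 for Mapkapk2, a kinase below p38, to 0.23, with Prkaca, the catalytic subunit of protein kinase A, at -1.01. Turned, Mapk9 stood at 0.05, Araf at 0.07 and Nras at -0.11, and the upstream factors ran from -0.38 to 0.24.

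Feedback inhibitors include phosphatases of MAP kinases, Sprouty proteins and mRNA decay factors. Of 16 measured, 1 was lower and 0 higher at an unadjusted p under 0.05, against 2.63% and 2.81% of all genes. The list's median was -0.03. The low one was Zfp36, which binds AU-rich mRNA and promotes its decay. It stood at -1.67 in pair 1, -0.91 and -1.05 in pair 2 and -1.23 in pair 3, a mean of -1.30 ± 0.35 (SD, n = 3 pairs). Its pairs were ordered as those of Egr1, and its limma adjusted p was 0.64, with the value below 0 on 4 of 4 arrays. Its mean was 0.12 ± 1.46 with arrays 1 and 2 turned.

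Of 34 other immediate-early genes 13 were lower and 3 higher at an unadjusted p under 0.05, against 2.63% and 2.81% of all genes. Earlier results may have shaped this list, so these counts are not a test of it. On all 4 arrays 13 were below 0 and 6 above. The list's median was -0.06 and its means ran from -1.66 to 0.47, so it spread to both sides. Ccl2, a chemokine that draws monocytes, stood at -2.93 in pair 1, -0.91 and -0.78 in pair 2 and -1.19 in pair 3. Irf1, an interferon-regulated transcription factor, had a mean of -1.26 ± 0.26 and Socs3, an inhibitor of cytokine signalling, -0.998 ± 0.65 (SD, n = 3 pairs). None of the 34 passed adjustment over all genes. With arrays 1 and 2 turned, 2 of the 34 were lower and 3 higher at an unadjusted p under 0.05, against 13.8% and 6.97% of all genes, and their median was 0.07. Turned, Irf1 stood at -0.00021 and Socs3 at -0.23.

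Genes reported as targets of Egr1 or AP-1 spread to both sides as well. Of 26 measured, 3 were lower and 7 higher at an unadjusted p under 0.05, against 2.63% and 2.81% of all genes. Of these 26, 0 passed adjustment over all genes, and the list's median was 0.11. Hmox1, heme oxygenase 1, had a mean of 1.78 ± 0.39 and Mt2, a metallothionein, 1.08 ± 0.74 (SD, n = 3 pairs), while Ccl2 had -1.66 ± 1.12. Ccl2 and the cytokine Il6, at -0.67, were counted among the lower genes of this list and of the immediate-early list. With arrays 1 and 2 turned, Hmox1 stood at -0.27, Mt2 at -0.69, Ccl2 at 0.60 and the list's median at -0.08. Turned, 3 of the 26 were lower and 0 higher at an unadjusted p under 0.05, against 13.8% and 6.97% of all genes. The directions thus depend on the reading.

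**Figure D4:**
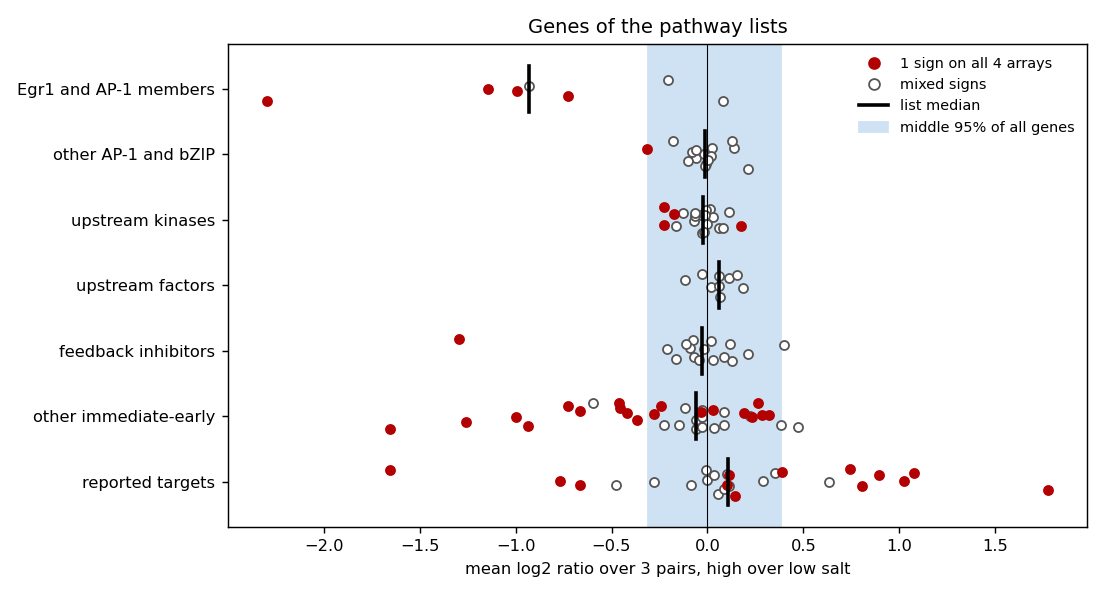
Mean log2 ratio of high over low salt over the 3 pairs (horizontal axis) for each measured gene of the member set and of 6 pathway lists; filled points had 1 sign on all 4 arrays, black bars are list medians and the shaded band is the middle 95% of all genes. The member median is -0.93, and the medians of the other lists lie between -0.06 and 0.11.

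The genes closest to Egr1 in their 4 array values, members left out, were Ccl7, Ccl2 and Zfp36. Their root mean square differences from it were 0.51, 0.66 and 1.00 on the log2 scale. Ccl7, a monocyte-attracting chemokine, stood at -3.30, -1.10, -1.66 and -0.54 on arrays 1 to 4. Closest to Fos were Il6, an inflammatory cytokine, at a difference of 0.096, Birc3, an inhibitor of cell death, at 0.13, and Arntl, a core clock factor, at 0.15. Il6 stood at -1.04, -0.30, -0.72 and -0.18 on arrays 1 to 4, each within 0.17 of Fos. Likeness over 4 arrays, of which 2 share their mice, is a description of these values.

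Markers of other cells in the ventricle were read beside the members. Of 11 measured fibroblast markers 10 had means above 0, with a median of 0.43, and 4 of 11 with a median of -0.09 when arrays 1 and 2 were turned. Of 13 listed leukocyte markers 3 were measured, and S100a9 lay at -1.42 ± 0.45, Cd14 at -0.39 ± 0.29 and Lyz2 at 0.45 ± 0.38 (SD, n = 3 pairs), with S100a9 at -0.23 when turned. The median of 7 endothelial markers was -0.0064, and of 3 smooth muscle and pericyte markers 0.18. The part of these cell types in the members' values was not tested. Of 13 listed cardiomyocyte markers 2 had values, Atp2a2 at -0.15 ± 0.21 and Ryr2 at 0.05 ± 0.14, and ratios between hearts do not show whether a marker is present.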

How the data were processed

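Total RNA (50 ug per dye) was reverse transcribed with oligo(dT), labelled with Cy3 or Cy5 and hybridised to printed cDNA clones, per the labels' protocols. For each array the authors deposited a log ratio of the 2 dyes per feature, assumed to be log2. How it was background-corrected and normalized, its base and its direction were not stated in the labels or the file. Of 17664 features 17207 had values, and 457 had none. The 736 features at 23 print positions without a gene name in any of 32 blocks were left out of fits over clones. Features were named from the platform annotation (12563 with 1 symbol, 412 with several, 4689 with none). Gene IDs of 12555 were found in RefSeq (GRCm38.p6), 8 were not, and 0 symbols were updated. Clones of a symbol were averaged (avereps), and arrays 2 and 4 were averaged as technical repeats.

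Pair values were tested against 0 across all genes with limma 3.58.1 in R 4.3.3 (lmFit, eBayes, Benjamini-Hochberg at 0.05), and a second fit added a dye term. The fit was tested on simulated data. The labels number the mice separately, so pairs are separate animals. The members and lists were chosen with earlier results of these data known. The naming rule picked, besides members, per list the 3 largest absolute means with 1 sign on all arrays, and the 3 genes nearest to Egr1 and to Fos. Several markers that met this rule are not named in the text. Zfp213, Mapkapk2, Prkaca, the remaining markers and Nab1 were chosen after their values were seen. A planned comparison of protein sequences was not run. Alternatives turned arrays, left out pairs, took 1 array for pair 2, scaled or centred arrays, took clone medians, kept recurring features, and used robust eBayes or a dye covariate.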

Additional observations from a re-analysis of the deposited data

Results flagged for a closer look

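Jun differed between the dye orientations. Its log2 ratio was 0.39 and 0.14 on the 2 arrays with Cy5 on high salt and -0.01 and -0.40 on the 2 with Cy3 on it, so each orientation kept 1 sign and the signs were opposite. The mean of the Cy5 arrays minus that of the Cy3 arrays was 0.47. This difference was picked out by its signs and not by a test. Over all genes 2539 (31.3%) had opposite signs by orientation in this way, and the 95th percentile of the absolute difference was 1.00. The limma dye term of Jun, which compares pair 3 with pair 1 only, was 0.20 with an adjusted p of 0.38. It leaves out the difference of -0.54 between arrays 2 and 4, so it does not test the 0.47. Groups of 3 pairs were not searched for outlying samples.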

How the results depend on the processing

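No gene and no clone passed the adjusted threshold for salt under any alternative run. The count of genes at an unadjusted p under 0.05, 441 as reported, was 1683 with arrays 1 and 2 turned, 1188 with a dye covariate and between 145 (without pair 2) and 851 (without pair 3) with 1 pair left out. The other alternatives gave counts within 1.5 times of it. All alternatives for this count, for the members below 0 on all arrays and for the turned lists were added after seeing the data. With arrays 1 and 2 turned, the member median was -0.044 and 0 members were below 0 on all arrays, against 4 as reported, and Egr1 and Fos took means of 0.33 and 0.13. Of the 32 genes that the naming rule picked, 25 then moved by at least their SD over pairs and 20 changed sign. These are the members, list and marker genes and the genes nearest to Egr1 and Fos. Some of these markers are not named in the text, and genes chosen after their values were seen are not counted. With 1 pair left out the member median ran from -0.59 (without pair 3) to -1.25 (without pair 2) and 4 to 6 members were below 0 on the arrays left. Scaling and centring changed no member's sign. Clone medians and robust eBayes could not change one: no member had more than 2 measured clones, and robust eBayes leaves means unchanged. Jun changed sign without pair 3 (-0.07) and with pair 2 from the Cy3 array (-0.0073). Genes called for dye numbered 416 as reported and 291 to 429 otherwise. Without pair 1 or pair 3 the dye orientations are unbalanced. Keeping the recurring features bears on clone fits only. The fits are already paired, since each ratio sets 1 high-salt mouse against 1 low-salt mouse. The few arrays and the lack of intensities limit what can be said of dim clones.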
